A study of Oryza sativa with 12 samples.

Results

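Leaves of droughted idr1-1 rice were compared with leaves of droughted wild type rice by sequencing of messenger RNA, 3 libraries against 3, out of 12 libraries in all. Every locus with enough counts entered the comparison, which left 22833 of the 55986 loci in the count tables. The question was which transcripts differ between the genotypes once both have dried down.

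The wild type was IAPAR9, an upland rice cultivar (Oryza sativa), and idr1-1 is 1 mutant line of it. Work on this mutant has traced it to RGA1, which codes for a G protein alpha subunit. Plants of both genotypes grew in concrete tanks, were 5 weeks old and at the five-leaf stage by their labels, and the droughted ones were harvested at a soil moisture of 10%. The remaining 6 libraries, 3 a genotype, came from plants without stress and are used here only as the unstressed reference. Each genotype is 1 line, so the RGA1 lesion and any other difference between idr1-1 and IAPAR9 cannot be told apart. The tissue label reads leaf, while the protocol speaks of seedlings. Leaf blade genes (CAB1R, CAB2R and RCA) were abundant in all 6 drought libraries, both shoot apex markers together stayed at or below 0.0486 normalised CPM, and 1 of them had no count in any of them.

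A heterotrimeric G protein is a membrane switch of an alpha, a beta and a gamma subunit that passes on signals from outside the cell, and in rice the alpha subunit is known for its part in plant height, grain size and stress tolerance. Drying leaves make abscisic acid, which frees SnRK2 kinases from the clade A phosphatases 2C. The kinases then activate transcription factors whose targets include the late embryogenesis abundant (LEA) proteins and dehydrins, hydrophilic proteins that are thought to protect cells as water is lost.

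The drought libraries held 20113468 to 25109848 counts. Levels are given as normalised CPM, which are counts scaled to a common depth (CPM) and then by edgeR's TMM factors. Differences are idr1-1 minus wild type on the log2 scale with a standard error (SE). A locus was called at an adjusted p under 0.05, and every adjusted p is a Benjamini-Hochberg value from edgeR's quasi-likelihood test over all loci tested. Gene names are assignments of published names to locus identifiers, and the identifier is what was counted.

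One library stood apart before any gene was examined. Replicate 3 of droughted idr1-1 correlated with its own replicates 1 and 2 at r = 0.966 and 0.951 across loci, and with the 3 wild type drought libraries at 0.970, 0.968 and 0.961. Replicates 1 and 2 correlated with each other at 0.979, the same as replicate 2 with wild type drought replicate 3. Replicates of the other 3 groups correlated at 0.983 to 0.988. Its TMM factor was 1.11, against 0.89 and 0.897 in replicates 1 and 2, and its 20 most abundant loci took 12.3% of the counts, against 15.9% or more in its partners. The library did not go against its genotype label. At 22 loci with at least 20 counts in every unstressed wild type library and 0 in every unstressed idr1-1 library, it held no locus with 5 counts or more, like idr1-1 replicates 1 and 2. Wild type drought replicates 1 and 3 held 19 and 18 such loci. Wild type drought replicate 2 held 5 and was at 0 at 17 of them. All results follow with and without idr1-1 drought replicate 3. Leaving it out was decided with its values known and leaves 2 idr1-1 libraries, so counts without it describe those 2 libraries against wild type.

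With all 6 libraries, 42 of 22833 loci were called (0.184%), 10 higher in idr1-1 (0.0438%) and 32 lower (0.14%). Of these, 24 differed by at least 2-fold, 5 of them higher and 19 lower. At an unadjusted p under 0.05 there were 3113 loci. The drought groups did not overlap at any of the 42, which a call from these same libraries favours. Of all loci tested, 3457 (15.1%) had no overlap. Without replicate 3, 1074 of 23197 loci were called (4.63%), 509 higher (2.19%) and 565 lower (2.44%), and 389 of them differed by at least 2-fold. All 42 were among the 1074. The median difference over all loci was 0.01 with replicate 3 and -0.01 without it on the log2 scale. Scaling by library size alone moved that median without replicate 3 to -0.17 and the calls to 328 higher and 1921 lower, so the balance of higher and lower calls depends on the scaling.

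Replicate 3 lay differently for the loci that were lower and for those that were higher in replicates 1 and 2. Of the 565 loci called lower without it, it was below all 3 wild type drought libraries at 284 (50.3%), within their range at 176 (31.2%) and above them at 105 (18.6%). Of the 509 called higher, it was above all 3 wild type libraries at 153 (30.1%), within their range at 104 (20.4%) and below them at 252 (49.5%). Over all loci tested it was below at 34.4% and above at 34.1%. Under TMM scaling it sided with replicates 1 and 2 more often where they were low than where they were high. With library size alone as the scaling it was below wild type at 200 of the 565. It was above wild type at 198 of 507 higher loci tested in both fits, so the direct contrast between the sets depends on the scaling. Over all 22833 loci, replicate 3 was under that scaling below wild type at 4604 and above it at 11333. Against those shares it was still below more often in the lower set and above less often in the higher set. Both sets were called against these same wild type libraries, so the position of replicate 3 against wild type is partly set by that choice.

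**Figure D1:**
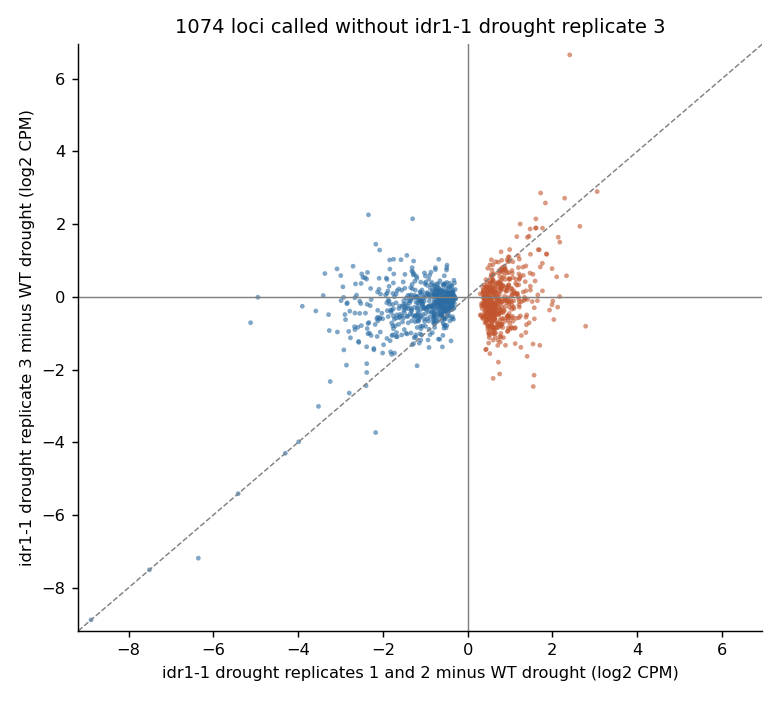
Each point is 1 of the 1074 loci called without idr1-1 drought replicate 3, with the mean log2 CPM of idr1-1 replicates 1 and 2 minus the wild type drought mean on the horizontal axis and replicate 3 minus the same mean on the vertical axis. The axes are log2 CPM with a prior count of 2, blue points were lower and orange points higher in replicates 1 and 2, and the dashed line marks equal values. Replicate 3 was on the same side of the wild type mean at 400 of 565 lower loci and at 197 of 509 higher loci.

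RGA1 (LOC_Os05g26890), the alpha subunit, was lower in every idr1-1 library. Wild type drought libraries held 23.9, 26.9 and 25.1 normalised CPM, and idr1-1 drought libraries held 12.3, 14.1 and 11.1. No idr1-1 library came near the wild type range, and replicate 3 was the lowest. The difference was -1.02 (SE 0.11, edgeR adjusted p = 0.0053), and -0.95 without replicate 3 (edgeR adjusted p = 0.0028). Unstressed leaves gave -1.27 (SE 0.11, edgeR adjusted p = 5e-04), and the difference between the drought and unstressed effects was 0.25 (SE 0.16, edgeR adjusted p = 0.48). RGB1, the beta subunit, held 35.3, 35.2 and 29.8 normalised CPM in wild type and 32.4, 31.5 and 36.3 in idr1-1, with overlapping groups and a difference of -0.00 (SE 0.09). RGG1, a gamma subunit, had 9 counts over the wild type drought libraries and 4 over the idr1-1 ones, too few to test.

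The loci with the steepest falls had no detected transcript in idr1-1. LOC_Os08g02904 held 51.8, 32.6 and 48.1 normalised CPM in wild type drought libraries and 0 counts in all 3 idr1-1 drought libraries. Against a floor of 3 counts over the group it was at least 919-fold lower (edgeR adjusted p = 3.3e-06). LOC_Os10g04130 held 16.8, 17.1 and 16 normalised CPM in wild type and 0 counts in idr1-1, at least 350-fold lower (edgeR adjusted p = 3.3e-06). Both were already at 0 or within 1 count of it in unstressed idr1-1. Of the 42 loci, 5 had no count in any idr1-1 drought library, and 4 had none in all 6 idr1-1 libraries. The floors cover counting error only.

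The rises are described for called loci with a mean of at least 5 normalised CPM in the higher group. Below that level LOC_Os03g22230, LOC_Os02g15280 and LOC_Os03g11810 differed by more (3.17, 1.94 and 1.86). LOC_Os10g04270 held 16.3, 16.3 and 14.4 normalised CPM in wild type and 32.7, 29.7 and 38.7 in idr1-1, a difference of 1.1 (SE 0.12, edgeR adjusted p = 0.0053). LOC_Os11g01240 held 2.55, 4.07 and 2.92 in wild type and 8.61, 11.8 and 7.8 in idr1-1, a difference of 1.56 (SE 0.21, edgeR adjusted p = 0.017). In these last 2 loci, replicate 3 lay on the idr1-1 side of the wild type range, which the choice of loci without overlap required. Unstressed leaves gave 1.63 and 1.77 for them. The loci given by identifier alone carry no gene name in the gene table used here.

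Many drought calls were shared with unstressed leaves. Those are separate libraries, but the same fit gave both contrasts with a shared estimate of spread at each locus. The call sets are therefore not fully independent. In unstressed leaves 2391 of 22833 loci were called (10.5%). Of the 42 drought calls, 20 (47.6%, or 0.836% of the unstressed calls) were also called there. The direction was the same at 19 of the 20: 13 of the 32 lower loci were lower unstressed as well, and 6 of the 10 higher loci were higher. Without replicate 3, 147 of the 1072 drought calls that were tested in both (13.7%, or 6.15% of the unstressed calls) were shared, 133 in the same direction and 14 in the opposite one.

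**Figure D2:**
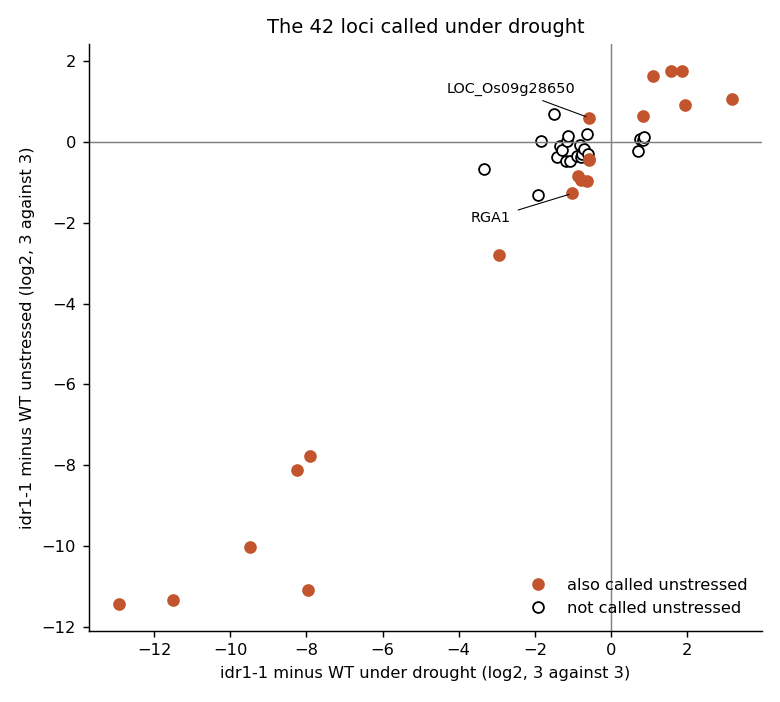
The 42 loci called with all 6 drought libraries are plotted by their log2 difference under drought (horizontal) and in unstressed leaves (vertical), idr1-1 minus wild type, 3 libraries against 3. Filled points (20) were also called unstressed and open points were not; positions of loci without counts in idr1-1 come from the fit and are not bounds.

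The locus that turned around, LOC_Os09g28650, was singled out after its values were seen. Under drought it held 28.2, 29.8 and 27.7 normalised CPM in wild type and 20.5, 17.9 and 19.4 in idr1-1 (-0.57, SE 0.09, edgeR adjusted p = 0.039). In unstressed leaves it held 30, 32.3 and 27.2 in wild type and 47.7, 46.5 and 41.9 in idr1-1 (0.60, SE 0.09, edgeR adjusted p = 0.0066). Wild type thus stayed near the same level in both treatments, and idr1-1 was above it in one and below it in the other. The difference between the effects was -1.17 (SE 0.12, edgeR adjusted p = 0.019). Over all loci, that difference was called at 11 (0.0482%), all of them also called unstressed, and at 489 without replicate 3. The unstressed libraries enter both tests, so the overlap of the 11 with the unstressed calls is partly built in.

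Gene lists of drought, hormone, leaf and wall functions held 206 named members, and 191 of them passed the filter on low counts. With all libraries 2 members were called, RGA1 and SUT1, both lower, and 49 had an unadjusted p under 0.05. DESeq2's Wald test called 12 and limma voom with sample quality weights, which gave replicate 3 a weight of 0.204 against 0.746 or more for the other libraries, called 19. Without replicate 3, edgeR called 26 members, 9 higher and 17 lower, against the 4.63% of all loci given above; DESeq2 called 39 and voom 31. Nothing called with replicate 3 was lost without it. The 24 added calls were made only without replicate 3, a choice that favours members where it departs from replicates 1 and 2. All 9 higher members of the 24 added calls had replicate 3 below every wild type library, also with library size alone as the scaling. Of the 15 lower ones, replicate 3 was below every wild type library at 10, within their range at 3 and above them at 2. One more member of the lists as fixed, a stress transcription factor locus that the gene table does not name, was called lower with all libraries. Without replicate 3, list loci whose names could not be used were called higher in photosystems and carbon fixation (3), NADPH oxidases (1), secondary walls (1), aquaporins (1), nitrogen assimilation (1) and compatible solutes (1), and lower in LEA proteins (1), stress transcription factors (2), compatible solutes (1) and flowering time (1). Counts by list are of named members. They stand beside 3113 of all 22833 loci at an unadjusted p under 0.05, and 5302 of 23197 without replicate 3. The last section gives the calls over all loci by DESeq2, and by voom with replicate 3.

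LEA proteins and dehydrins were the list with the lowest median. Its 9 named members all passed the filter, and 8 of 9 differences were negative with all libraries, with a median of -0.99, and 9 of 9 without replicate 3, with a median of -1.53, which is the same with EMP1, at 0 counts in replicates 1 and 2, set to its bound. None of the 9 was called with all libraries by edgeR, while DESeq2 called 4 and voom 5. At an unadjusted p under 0.05 there were 7 of the 9, against 3113 of all 22833 loci. Without replicate 3, edgeR called 5 of 9, all lower, against 2.44% of all loci. The groups did not overlap at 6 of the 9 with all 6 libraries, against 15.1% of all loci.

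RAB16A, a dehydrin, held 937, 723 and 991 normalised CPM in wild type and 233, 290 and 608 in idr1-1. Every idr1-1 library was below every wild type library, and replicate 3 lay between the other idr1-1 libraries and wild type. The difference was -1.23 (SE 0.30, edgeR adjusted p = 0.12), and -1.77 without replicate 3 (SE 0.16, edgeR adjusted p = 0.00056). RAB16B, its neighbour, held 222, 211 and 270 in wild type and 86.5, 135 and 133 in idr1-1. Here replicate 3 matched replicate 2, and the difference was -0.99 (SE 0.17, edgeR adjusted p = 0.052) and -1.09 without replicate 3 (edgeR adjusted p = 0.0083). LEA3-1, a group 3 LEA protein, held 217, 138 and 220 in wild type and 46.7, 87.1 and 90.8 in idr1-1, again without overlap. Its difference was -1.36 (SE 0.26, edgeR adjusted p = 0.064) and -1.53 without replicate 3 (edgeR adjusted p = 0.011).

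RAB16D, a dehydrin with few counts, held 4, 2.44 and 4.19 normalised CPM in wild type and 0.693, 0.729 and 2.24 in idr1-1, and was called without replicate 3 at -2.31 (SE 0.45, edgeR adjusted p = 0.019). RAB16C held 41.1, 31.7 and 56.9 in wild type and 21.5, 27 and 26.5 in idr1-1, and was called without replicate 3 at -0.84 (SE 0.21, edgeR adjusted p = 0.043). RAB16C lost its call under 11 of 20 alternatives without replicate 3. Unstressed idr1-1 was already lower for RAB16C, at 1.58 against 3.74 normalised CPM in wild type (-1.24, SE 0.25, edgeR adjusted p = 0.017). Its drought and unstressed effects did not differ by the test with all libraries (edgeR adjusted p = 0.53). DHN1, the dehydrin with the most counts after RAB16A, held 345, 224 and 266 in wild type and 166, 190 and 222 in idr1-1, below wild type in every library and not called (-0.66 without replicate 3, edgeR adjusted p = 0.07). EMP1, a group 1 LEA protein, went the other way in replicate 3 alone, with 0, 0 and 2.02 normalised CPM against 0.936, 0.659 and 0.137 in wild type. The RAB16 genes are close relatives side by side in the genome, and reads that fit several of them could have been divided among them. In unstressed leaves RAB16A was at 0.0143 normalised CPM in wild type and 0.0323 in idr1-1, at the level of single reads, so a test of whether its genotype effect differs from unstressed leaves has little to work on.

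**Figure D3:**
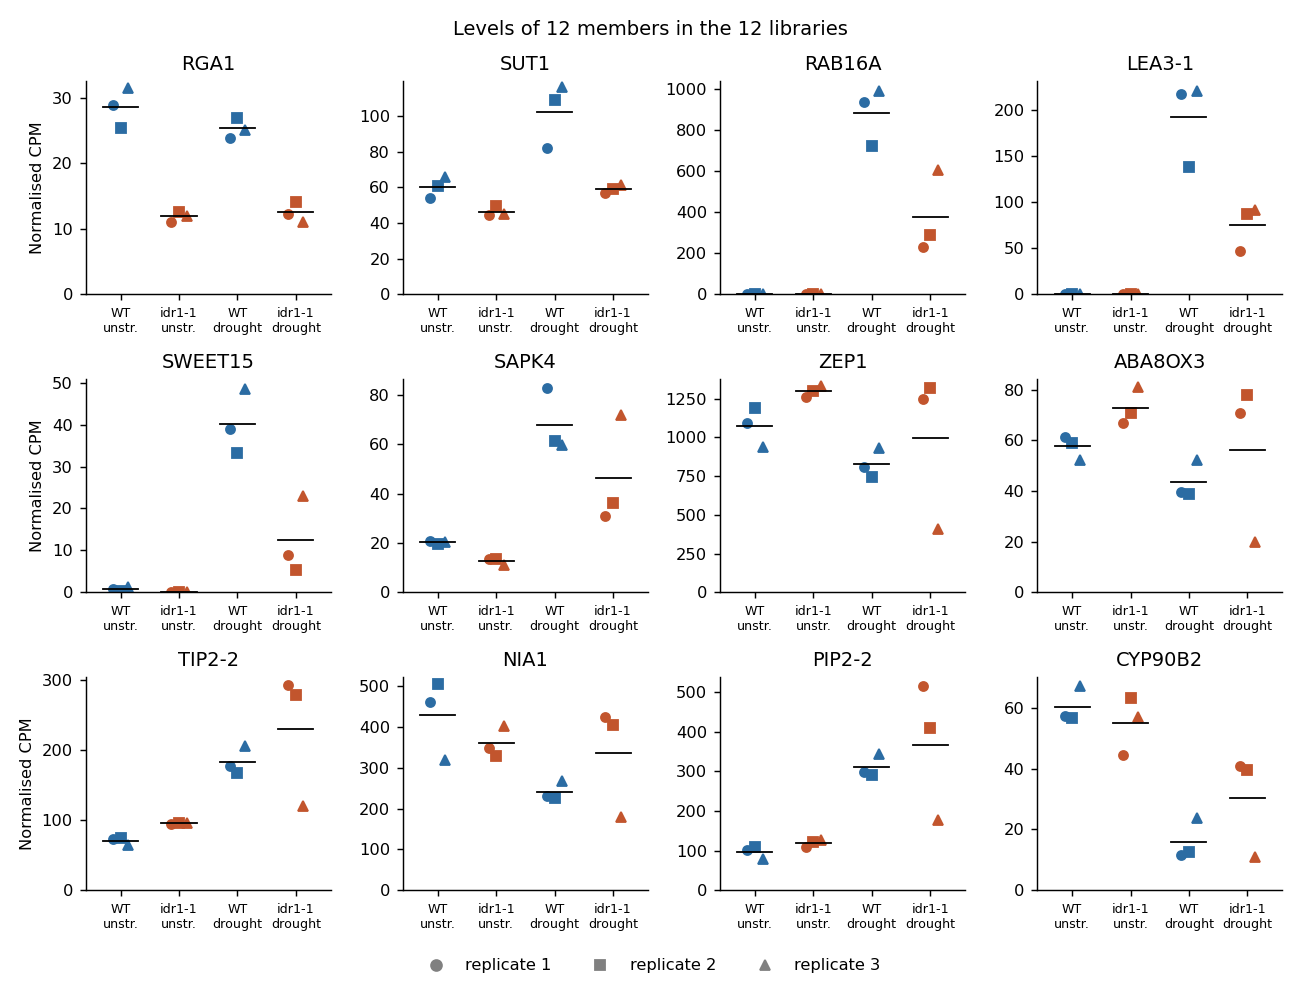
Normalised CPM of 12 named members in all 12 libraries. Blue marks wild type, orange idr1-1, the marker shape the replicate number (not taken to pair samples) and the bar the group mean. In droughted idr1-1 the replicate 3 triangle lies with replicates 1 and 2 for RGA1, SUT1 and LEA3-1, between them and wild type for RAB16A and SWEET15, and below all wild type drought libraries for ZEP1, ABA8OX3, TIP2-2, PIP2-2, NIA1 and CYP90B2.

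Some genes of abscisic acid metabolism lay apart in replicate 3 and its partners, while NCED3 and ABA8OX1 were below wild type in every idr1-1 library. None of the 5 tested members was called by edgeR with all libraries (2 at an unadjusted p under 0.05, 1 by DESeq2 and 1 by voom), and 2 were called higher without replicate 3. ZEP1, zeaxanthin epoxidase of the early pathway, held 805, 746 and 928 normalised CPM in wild type and 1250, 1320 and 411 in idr1-1. Replicates 1 and 2 were above and replicate 3 below all wild type libraries, and the difference without replicate 3 was 0.63 (SE 0.12, edgeR adjusted p = 0.016). ABA8OX3, a hydroxylase that breaks the hormone down, held 39.8, 38.7 and 52.2 in wild type and 70.9, 78 and 20 in idr1-1, which gave 0.76 (SE 0.13, edgeR adjusted p = 0.01) without replicate 3 and 0.37 with it. ABA8OX1, a hydroxylase of the same kind, went the other way, at 21.3, 17.1 and 20.9 in wild type and 11, 15 and 10.5 in idr1-1. Its groups did not overlap, and it was not called (-0.70, SE 0.31, edgeR adjusted p = 0.35). NCED3, a dioxygenase of the committed step, held 80.9, 59.7 and 39 in wild type and 23, 35.1 and 34.9 in idr1-1. All idr1-1 libraries were below all wild type ones for NCED3, and the test did not pass either way (edgeR adjusted p = 0.16, and 0.064 without replicate 3).

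Of 10 SnRK2 kinases, 3 were called lower without replicate 3, where 8 differences were negative. None was called with it by edgeR (4 at an unadjusted p under 0.05, 0 by DESeq2, 2 by voom). SAPK4 held 82.8, 61.1 and 59.5 normalised CPM in wild type and 30.7, 36.3 and 71.8 in idr1-1, so that replicate 3 lay within the wild type range. Without it the difference was -1.03 (SE 0.15, edgeR adjusted p = 0.0051). SAPK6 and SAPK10 were lower by -0.48 and -0.62 (edgeR adjusted p = 0.015 and 0.036), with replicate 3 inside the wild type range for SAPK6 and above it for SAPK10.

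The clade A phosphatases 2C, which hold the kinases down, had 0 of 9 calls by edgeR with or without replicate 3. At an unadjusted p under 0.05 there were 1 and 4 members, DESeq2 called 0 and 0, and voom 1 and 2. PP2C09, the member with the most counts, held 434, 377 and 498 normalised CPM in wild type and 374, 490 and 353 in idr1-1, with overlap and a difference of -0.10 (SE 0.20). All 9 differences were negative with all libraries and 8 of 9 without replicate 3, with medians of -0.29 and -0.19.

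Among 10 stress transcription factors none was called by edgeR, DESeq2 or voom with or without replicate 3 (3 and 2 at an unadjusted p under 0.05). SNAC2, a stress NAC factor with the most counts of the list, held 252, 248 and 361 normalised CPM in wild type and 301, 340 and 133 in idr1-1, where replicate 3 was below all wild type libraries. TRAB1, a bZIP factor of abscisic acid responses, held 37.2, 38 and 38.7 in wild type and 29.1, 31.6 and 34.6 in idr1-1 without overlap, and missed the threshold (-0.26, edgeR adjusted p = 0.27). Abscisic acid receptors had no member whose name could be used.

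Of 6 enzymes of compatible solutes, 1 was called lower without replicate 3 and none with it by edgeR (1 at an unadjusted p under 0.05, 0 by DESeq2, 1 by voom). P5CS2, a proline synthesis enzyme, held 28.7, 36.2 and 32.5 normalised CPM in wild type and 9.6, 17 and 33.6 in idr1-1. Replicates 1 and 2 were low and replicate 3 was at the wild type level; without it the difference was -1.30 (SE 0.21, edgeR adjusted p = 0.01). P5CS1, the other proline enzyme, held 219, 172 and 226 in wild type and 159, 199 and 152 in idr1-1 and was not called (-0.28, SE 0.13).

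Sugar transporters held the other called member. SUT1, a sucrose transporter that loads sucrose into cells from the apoplast, held 82, 109 and 116 normalised CPM in wild type and 56.8, 58.8 and 61.5 in idr1-1. All 3 idr1-1 libraries, replicate 3 included, sat close together below wild type, at a difference of -0.79 (SE 0.12, edgeR adjusted p = 0.039). Its call was lost under 11 of 22 alternatives, among them the fit to the 2 drought groups alone (edgeR adjusted p = 0.3), leaving out wild type drought replicate 2 or 3 (0.11 and 0.091) or idr1-1 drought replicate 1 (0.18), and the difference ran from -0.94 to -0.70 over all of them. In unstressed leaves SUT1 was at -0.38 (edgeR adjusted p = 0.071), and the effects did not differ by the test (edgeR adjusted p = 0.28).

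Both called SWEET genes, which code for sugar exporters, were lower without replicate 3. SWEET15 held 39, 33.3 and 48.5 normalised CPM in wild type and 8.95, 5.35 and 23 in idr1-1, with no overlap and replicate 3 nearest to wild type. Its difference was -1.69 (SE 0.43, edgeR adjusted p = 0.13), and -2.50 without replicate 3 (SE 0.31, edgeR adjusted p = 0.003). SWEET13 held 40.2, 53.7 and 47.5 in wild type and 23.2, 18.4 and 36.2 in idr1-1, with -0.86 (edgeR adjusted p = 0.18) and -1.19 without replicate 3 (edgeR adjusted p = 0.016). Of the 9 tested members of the sugar list, 3 were called lower and none higher without replicate 3. Replicate 3 was below all wild type drought libraries at 4 of the 9 and above them at 3. SUS1, a sucrose synthase, held 32.2, 20.7 and 27.9 in wild type and 43.1, 22.8 and 85.4 in idr1-1. Both replicates 1 and 3 were above all wild type libraries there.

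Water channels had list medians of 0.16 and 0.18 on the log2 scale above the wild type mean in idr1-1 replicates 1 and 2, which were -0.02 and 0.01 with library size alone, and of -0.52 in replicate 3. Of 14 tested aquaporins none was called by edgeR with all libraries (2 at an unadjusted p under 0.05, 1 by DESeq2, 0 by voom), and 3 were called higher without replicate 3. TIP2-2, a channel of the vacuolar membrane, held 178, 167 and 206 normalised CPM in wild type and 293, 278 and 120 in idr1-1, and gave 0.63 without replicate 3 (SE 0.09, edgeR adjusted p = 0.0065). PIP2-2, a plasma membrane channel, held 298, 291 and 345 in wild type and 517, 409 and 177 in idr1-1 (0.56 without replicate 3, edgeR adjusted p = 0.046), a call lost under 10 of 20 alternatives. TIP1-1, also of the vacuolar membrane, gave 0.38 (edgeR adjusted p = 0.048), a call lost under 14 of 20 alternatives. Replicate 3 was the lowest of all 6 drought libraries at 8 of the 14 channels, whereas it was lowest at 25.8% of all loci (also 8 of 14 with library size alone, against 12.1%). PIP2-7, the channel with the most counts, held 1530, 1560 and 1510 in wild type and 1890, 1730 and 1770 in idr1-1, with all idr1-1 libraries above wild type and no call (0.23, edgeR adjusted p = 0.53).

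Chlorophyll synthesis genes of the idr1-1 libraries lay on either side of wild type. Of 10 tested enzymes none was called by edgeR with all libraries (1 at an unadjusted p under 0.05, 0 by DESeq2 and voom), and 1 was called higher without replicate 3. Replicate 3 was the lowest of the 6 drought libraries at 9 of the 10 (6 with library size alone), and the list median was 0.41 and 0.29 above the wild type mean in replicates 1 and 2 and -0.39 in replicate 3. DVR, divinyl reductase, held 101, 94.6 and 131 normalised CPM in wild type and 165, 165 and 84.4 in idr1-1 (0.59 without replicate 3, SE 0.13, edgeR adjusted p = 0.035). PORB, a protochlorophyllide oxidoreductase and the member with the most counts, held 950, 913 and 1330 in wild type and 1580, 1490 and 673 in idr1-1 and was not called without replicate 3 (0.52, edgeR adjusted p = 0.11). PORA was the exception, at 215, 66.4 and 391 in idr1-1 against 132, 98.9 and 99.8 in wild type.

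In photosystems and carbon fixation, 3 named members were tested and none was called by edgeR with or without replicate 3 (1 and 2 at an unadjusted p under 0.05, DESeq2 0 and 1, voom 0 and 0). CAB1R, a light-harvesting protein of photosystem II, held 14800, 12600 and 16000 normalised CPM in wild type and 19500, 19000 and 12000 in idr1-1. The summed level of the 3 leaf blade genes was 24300 to 27800 in wild type and 36200, 33300 and 22800 in idr1-1 replicates 1, 2 and 3. These sums move with the differences of chlorophyll synthesis and water channels, and their part in them was not tested. In bulk leaf RNA, fewer cells of a type and less RNA per cell cannot be told apart. Of the 4 tested chlorophyll breakdown genes none was called by any tool, with or without replicate 3, and none had an unadjusted p under 0.05. NYC1, chlorophyll b reductase and its member with the most counts, held 169, 130 and 199 in wild type and 209, 226 and 116 in idr1-1.

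**Figure D4:**
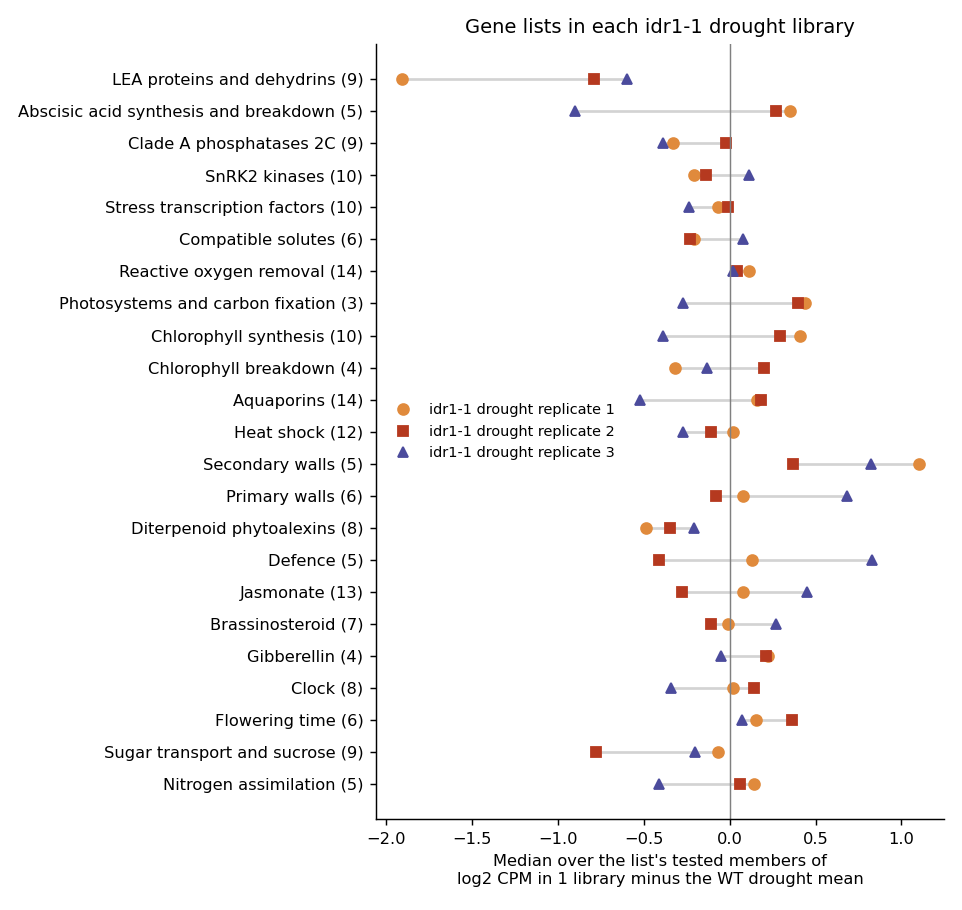
For each gene list with at least 3 tested members (number in brackets), the median over members of log2 CPM in 1 idr1-1 drought library minus the wild type drought mean. Replicate 3 (triangles) is on the other side of 0 from replicates 1 and 2 for abscisic acid metabolism, photosystems and chlorophyll synthesis under TMM, DESeq2 and library size scaling, for aquaporins, nitrogen assimilation and the clock only under the first 2, and on the same side for LEA proteins under all 3; it is also on the other side, but above 0, for SnRK2 kinases, compatible solutes and brassinosteroid under all 3, and below 0 for gibberellin under the first 2 only.

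Nitrogen assimilation had 1 of 5 members called higher without replicate 3 and none with it by any tool or at an unadjusted p under 0.05. NIA1, a nitrate reductase, held 231, 226 and 268 normalised CPM in wild type and 424, 404 and 180 in idr1-1, with 0.77 without replicate 3 (SE 0.16, edgeR adjusted p = 0.027). Replicate 3 was again below every wild type library. Of 14 enzymes of reactive oxygen removal, 1 was called lower without replicate 3 and none with it by edgeR (1 at an unadjusted p under 0.05, 0 by DESeq2 and voom). SODCC2, a cytosolic superoxide dismutase, held 257, 257 and 267 in wild type and 199, 217 and 357 in idr1-1, where replicate 3 was above all wild type libraries (-0.33 without it, edgeR adjusted p = 0.037, a call lost under 9 of 20 alternatives). RBOHB, the 1 NADPH oxidase with a usable name, held 160, 159 and 155 in wild type and 138, 120 and 171 in idr1-1 and was not called by any tool (-0.15, SE 0.13; unadjusted p under 0.05 only without replicate 3).

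Growth hormone genes had 2 of 7 (brassinosteroid) and 1 of 4 (gibberellin) called by edgeR without replicate 3, against 4.63% of all loci. Of 7 brassinosteroid genes, none was called by edgeR with all libraries (3 at an unadjusted p under 0.05, 0 by DESeq2, 2 by voom). CYP90B2, a hydroxylase of brassinosteroid synthesis, held 11.7, 12.6 and 23.7 normalised CPM in wild type and 40.7, 39.6 and 10.8 in idr1-1, and was called higher without replicate 3 (1.32, SE 0.25, edgeR adjusted p = 0.016). CYP85A1, an oxidase later in the same pathway, held 30.7, 31.6 and 32.1 in wild type and 23.2, 24.8 and 13.5 in idr1-1. It was below wild type in all 3 and called without replicate 3 (-0.40, edgeR adjusted p = 0.045), a call lost under 11 of 20 alternatives. TUD1, a ubiquitin ligase known to act with RGA1 in brassinosteroid responses, held 25.3, 23.9 and 23.9 in wild type and 29.7, 27.4 and 29.4 in idr1-1. Its groups did not overlap, and it was not called (0.24, SE 0.07, edgeR adjusted p = 0.2).

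Of 4 gibberellin genes, none was called by edgeR with all libraries (2 at an unadjusted p under 0.05, 0 by DESeq2, 1 by voom). GID1, the gibberellin receptor, held 113, 104 and 122 normalised CPM in wild type and 81.2, 94.5 and 103 in idr1-1, and was called lower without replicate 3 at -0.38 (edgeR adjusted p = 0.043), a call lost under 13 of 20 alternatives. SLR1, the DELLA repressor, held 92.9, 94.9 and 105 in wild type and 123, 117 and 115 in idr1-1, above wild type in every library and not called (0.27, edgeR adjusted p = 0.24).

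Of 6 tested flowering genes none was called by edgeR or DESeq2 with or without replicate 3 (1 and 1 at an unadjusted p under 0.05, 1 and 1 by voom). HD3A, a florigen or leaf-made signal of flowering, had 0 counts in all wild type drought libraries and 0.346, 0.389 and 0 normalised CPM in idr1-1. MADS50, a MADS-box activator of flowering and the member with the most counts, held 59.5, 70.7 and 63.6 in wild type and 72.7, 63.3 and 56.3 in idr1-1, with overlap and a difference of -0.01 (SE 0.11). The 8 tested clock genes had no call by any tool with or without replicate 3 (1 and 0 at an unadjusted p under 0.05), and replicate 3 was the lowest of the 6 drought libraries at all 8, or at 5 with library size alone. GI, an evening factor of the clock and its member with the most counts, held 1010, 1030 and 1160 in wild type and 1090, 1160 and 841 in idr1-1.

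Defence and jasmonate genes differed among the idr1-1 libraries. Of 13 jasmonate genes none was called by any tool with or without replicate 3 (2 and 2 at an unadjusted p under 0.05), and replicate 3 was the highest of the 6 drought libraries at 9 of 13, against 26.2% of all loci (11 of 13 with library size alone, against 45.3%). JAZ7, a repressor of jasmonate signalling with the most counts of the list, held 146, 153 and 154 normalised CPM in wild type and 205, 124 and 308 in idr1-1. Of 5 defence genes none was called by edgeR or voom (2 and 4 at an unadjusted p under 0.05 with and without replicate 3, 2 and 2 by DESeq2). PBZ1, a pathogenesis-related protein with the most counts of that list, held 165, 204 and 170 in wild type and 135, 134 and 211 in idr1-1. WRKY76, a defence factor named after its values were seen, held 3.66, 1.4 and 2.46 in wild type and 28.4, 1.9 and 19.6 in idr1-1, high in replicates 1 and 3 and at the wild type level in replicate 2.

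Of 8 tested genes of diterpenoid phytoalexins, antimicrobial compounds of rice, 1 was called lower without replicate 3 and none with it by edgeR (3 at an unadjusted p under 0.05, 2 by DESeq2, 1 by voom). CPS2, a synthase of the phytocassane branch, held 115, 138 and 126 normalised CPM in wild type and 89.4, 87.1 and 101 in idr1-1, with no overlap (-0.45, edgeR adjusted p = 0.14; -0.53 without replicate 3, edgeR adjusted p = 0.039, a call lost under 8 of 20 alternatives). Unstressed idr1-1 was lower too, at -0.76 (edgeR adjusted p = 0.0084). The 12 heat shock genes had no call by edgeR with or without replicate 3 (3 and 5 at an unadjusted p under 0.05, DESeq2 0 and 1, voom 0 and 1). HSFB2C, the heat stress factor with the most counts there, held 182, 173 and 175 in wild type and 179, 181 and 120 in idr1-1.

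Wall genes were looked at across both treatments after their values were seen, since no drought call was made among the named ones by any tool, with or without replicate 3 (3 of 11 at an unadjusted p under 0.05 with it and 1 without). CESA4, a cellulose synthase of secondary walls, held 12.7, 8.06 and 8.79 normalised CPM in droughted wild type and 20.8, 12.5 and 17.1 in droughted idr1-1, a difference of 0.77 (SE 0.35, edgeR adjusted p = 0.37). In unstressed leaves it was lower in idr1-1, at -2.14 (SE 0.40, edgeR adjusted p = 0.013). CESA7 and CESA9, its partners in the same complex, gave 0.90 and 0.79 under drought and -2.03 and -2.06 unstressed. For these 3 genes the difference between the effects was 2.85 to 2.93 with edgeR adjusted p of 0.069 to 0.081, and 0.03 to 0.037 without replicate 3.

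CAD2, cinnamyl alcohol dehydrogenase of lignin synthesis and the secondary wall member with the most counts, was higher in unstressed idr1-1 (1.16, edgeR adjusted p = 0.022) and not called under drought (0.46, edgeR adjusted p = 0.48). All 5 secondary wall members were positive under drought, while 4 were called lower and 1 higher unstressed. The 6 cellulose synthases of growing walls were at 0.05 to 0.58 under drought, with 1 of 6 negative under library size alone, and 5 of them were called lower unstressed. CESA3, the one with the most counts, held 98.3, 88.5 and 86.1 in wild type and 99.1, 64.8 and 171 in idr1-1, and replicate 3 was the highest of the 6 drought libraries at all 6 genes. Under drought, then, none of these 11 genes differed by the test, and the sign of the primary wall median differed with replicate 3 (0.21) and without it (-0.06).

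**Figure D5:**
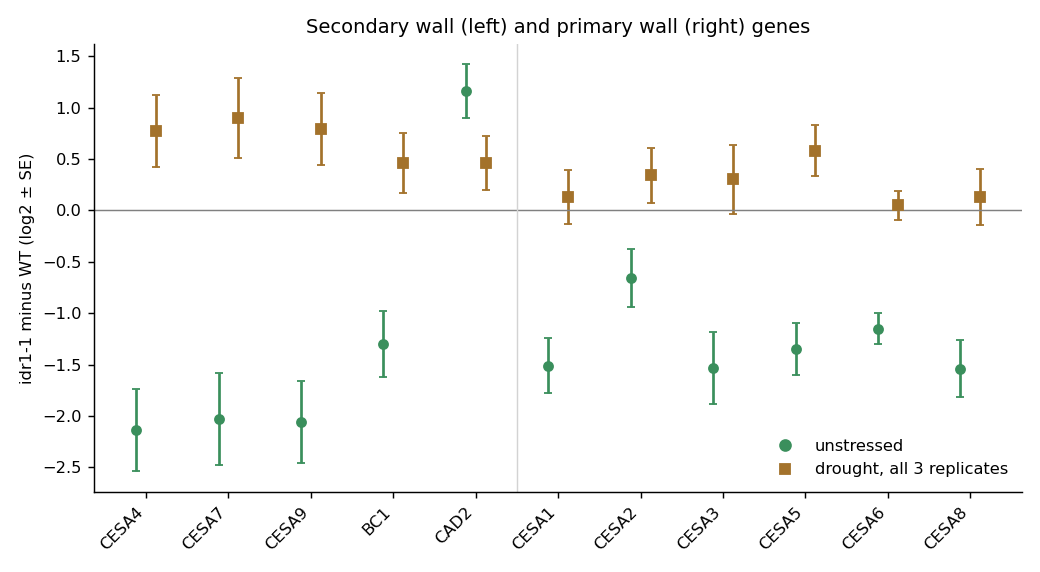
Log2 difference of idr1-1 minus wild type, with its SE, for 5 secondary wall genes (left) and 6 cellulose synthases of growing walls (right), in unstressed leaves (circles) and under drought with all replicates (squares). The drought values lie above 0 (with library size alone as the scaling, 1 of the 6 on the right is below it) and all unstressed values except that of CAD2 lie below it.

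Markers of other tissues were looked at in the same libraries. The summed level of the 6 cell division genes was 20.5 to 23.1 normalised CPM in droughted wild type and 21.1 to 22.2 in idr1-1, and none of the 4 tested was called by any tool or at an unadjusted p under 0.05. Inflorescence markers summed to 0.0388 to 0.0456 in wild type and to 0.0495, 0.729 and 0.224 in idr1-1, and the 1 tested, MADS1, had an unadjusted p of 0.031 and no call (edgeR adjusted p = 0.31). LSI1, the silicon channel known from roots, held 7.19, 9.96 and 9.11 in wild type and 18.5, 13.2 and 3.94 in idr1-1 and was called higher without replicate 3 (0.84, SE 0.17, edgeR adjusted p = 0.023), while LSI2, the other root marker, had no count. Secondary wall genes, which also mark veins, summed to 54.9 to 71.2 in wild type and 121, 73.3 and 101 in idr1-1.

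The result depends on single libraries beyond replicate 3. Leaving out idr1-1 drought replicate 1 left 9 calls, all among the 42, and leaving out idr1-1 drought replicate 2 gave 506, with all 42 among them. Leaving out wild type drought replicate 1, 2 or 3 gave 13, 18 and 16 calls, of which 11, 14 and 14 were among the 42. Common to all 6 of these sets and to the full set were 9 loci, 7 lower and 2 higher, among them RGA1, LOC_Os08g02904, LOC_Os10g04130 and LOC_Os10g04270. Wild type drought replicate 2 had 0 counts at 32 loci where both of its partners had at least 10; 29 of these were at 0 in all idr1-1 drought libraries and none was called. Unstressed wild type replicate 1 had 20 such loci, of which 18 were at 0 in all 6 idr1-1 libraries. Droughted idr1-1 replicate 2 had 0 counts at 43 loci where both of its partners had at least 10. The other libraries had 0 to 8 such loci.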

How the data were processed

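The deposited values are estimated counts per locus, 1 table per library, not scaled to depth per the files. The submitters' processing notes name HISAT2 2.1.0 and featureCounts 1.6.3. Neither the build, the annotation nor the strand setting is given in the sources used here. Fractions stood in 13.8% of nonzero values, so overlapping, antisense and near-identical loci are uncertain; rounding changed library totals by at most 0.0011%. Depth was 19100444 to 25109848 counts, so a floor of 3 counts is 0.119 to 0.157 CPM.

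In R 4.3.3, edgeR 4.0.16 (filterByExpr, TMM, quasi-likelihood test, 1 mean per group over all 12 libraries, 8 residual degrees of freedom) gave all contrasts. The biological coefficient of variation was 0.17, and 0.13 without idr1-1 drought replicate 3. Alternatives used DESeq2 1.42.0 and limma 3.58.1 among others. The steps were tested on simulated counts. Replicates are called biological by the series' design text. Replicate numbers were not taken to pair samples.

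The comparison, lists and members were chosen with earlier results of these data known. Named are RGA1, up to 4 called members a list by size of difference, members whose call changes without replicate 3, the member with the most counts of a list without calls, and the 2 unnamed loci with the largest rise and the 2 with the largest fall among those called with and without replicate 3, not overlapping, with a mean of at least 5 normalised CPM in the higher drought group; further genes are named as examples chosen after their values were seen. None of the locus identifiers is in the gene table (RefSeq, another assembly), so of 278 members 206 were kept whose name the table holds on the same chromosome, in order, and within 0.5 Mb of the expected place, a limit set after seeing the distances. This cannot detect a name given to a neighbouring locus. The planned promoter motifs and GC or length checks were not used here, and 1 further list member is not reported here.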

Additional observations from a re-analysis of the deposited data

Results flagged for a closer look

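LOC_Os09g28650 was flagged because its genotype effect differed between drought and unstressed leaves by the test of that difference, at -1.17 on the log2 scale (edgeR adjusted p = 0.019), with idr1-1 below wild type in 3 of 3 drought libraries and above it in 3 of 3 unstressed ones. The 9 further genes were flagged by the same test in the fit without idr1-1 drought replicate 3 alone, so each rests on 2 idr1-1 drought libraries. P5CS2 differed by -1.32 (edgeR adjusted p = 0.046), TIP1-1 by 0.82 (0.02), CYP90B2 by 1.46 (0.046) and NIA1 by 1.02 (0.043). Among the cellulose synthases, CESA4 differed by 2.90 (0.03), CESA7 by 2.94 (0.037), CESA9 by 2.84 (0.031), CESA5 by 1.70 (0.033) and CESA6 by 1.15 (0.03). With replicate 3 in the fit none of these passed, the adjusted p of the cellulose synthases being 0.069 to 0.081. Groups of 3 libraries were not tested for single outlying samples.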

How the results depend on the processing

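Leaving out replicates gave 9 to 1074 drought calls against 42, and 74 to 1344 against 1074 with idr1-1 drought replicate 3 left out throughout (74 without idr1-1 drought replicate 1, 232 and 439 without wild type drought replicate 1 and 2). It gave 207 to 4557 unstressed calls against 2391 and 0 to 582 for the difference of the genotype effect against 11, so that no count is stable to its libraries. With all libraries the drought calls were 18 under library size alone (2 higher, 16 lower), 555 by DESeq2's Wald test, 79 with every gene of at least 1 count, 859 by limma voom with sample quality weights, 3 with the 2 drought groups alone and 658 with those groups less replicate 3. DESeq2 size factors, the CPM filter and rounding down gave 42 to 46. Without replicate 3 they were 2249 under library size alone (14.6% higher, against 47.4%), 1891 by DESeq2 and 658 with the drought groups alone. The difference of the genotype effect gave 2, 708, 82 and 371 calls under library size alone, DESeq2, every gene of at least 1 count and voom, and unstressed leaves gave 1437 under library size alone and 4657 by voom. The replicate block gave 14 drought calls, 0 for the difference and 1112 unstressed, and 1130 drought calls without replicate 3. Deviations from the group means correlated at -0.32 to 0.22 between same-numbered samples of different groups, with 2 of 18 pairs over 0.1. Pairs of unlike number were not computed, so this range does not decide whether the numbers pair samples. None of the 6 genes called with all libraries and the 24 called without replicate 3 changed direction under any alternative run. The alternatives for the 24 all left replicate 3 out, so they could not show its effect on direction. Replicate 3 lay on the opposite side of the wild type range at 9 of the higher and 2 of the lower genes among the 24. Choosing genes called only without it favours such positions. Calls were lost in 18 of 132 settings of the 6 genes and in 119 of 480 of the 24. The alternatives without replicate 3 were mostly chosen after seeing the data. The cause of these shifts was not tested. At 3 libraries a group, low counts such as those of HD3A and RAB16D are known least well.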
